A study of Canis lupus familiaris with 24 samples.

Results

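The transcripts described here encode 8 proteases of the ADAM and ADAMTS families: ADAM9, ADAM10, ADAM12, ADAM17, ADAM19, ADAMTS1, ADAMTS4 and ADAMTS6. They were chosen by symbol from the 32704 genes of a dog gene count table, with their levels in these libraries already known. Low ADAM12 and ADAM19 in one of the lines was part of the choice, so differences between the lines are described without a test. The table held 42 symbols of the ADAM, ADAMTS and ADAMTS-like families. Of these, 23 passed the filter on low counts, the 8 members among them.

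RNA was sequenced from 2 lines of Madin-Darby canine kidney cells, an established dog kidney epithelial culture used to study epithelial-to-mesenchymal transition (EMT). MDCK-II and MDCK-NBL2 cells were taken untreated at day 0, untreated at day 4, and after transforming growth factor beta (TGFb) at day 4. A further pair of MDCK-NBL2 groups was also treated with TGFb to day 4 and carried either siCTR, a control siRNA, or siPRRX1, which targets the transcription factor PRRX1. The labels call untreated cells epithelial, TGFb-treated MDCK-II cells and siPRRX1 cells partial EMT, and the TGFb-treated and siCTR MDCK-NBL2 cells full EMT. There were 3 numbered libraries in each of the 8 groups. Since separate cultures are not stated, the p-values reflect variation among the libraries, which may be technical.

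ADAM proteins are membrane-anchored metalloproteases. ADAM10 and ADAM17 are the widely expressed sheddases that release the outer parts of Notch receptors, cadherins, cytokines and EGF family ligands, while ADAM9, ADAM12 and ADAM19 cut a narrower set of membrane proteins and matrix. ADAMTS proteins are secreted and carry thrombospondin repeats that hold them in the matrix, where ADAMTS1 and ADAMTS4 cut the proteoglycans versican and aggrecan and ADAMTS6 acts on microfibrils and cell-surface proteoglycan. All are made as inactive precursors that furin-like convertases cut, and TIMP proteins inhibit the mature enzymes, so a transcript level is not an activity.

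Total counts per library ran from 6134929 to 27567296. Levels are given in CPM, counts scaled to 1000000 per library after TMM adjustment, and they compare libraries, not genes, because no transcript length was used. In all groups the summed epithelial tubule markers lay between 2630 and 7840 CPM. The sum does not show changes of single markers. With TGFb, 7 of the 10 markers were lower in MDCK-NBL2 and 1 in MDCK-II (edgeR, adjusted p under 0.05), and none was higher. Over all genes tested, 23.4% and 9.27% were lower. Without the library labelled untreated day 4 replicate 2 of MDCK-NBL2, 8 markers were lower in MDCK-NBL2, beside 27.7% of all genes, and 3 in MDCK-II. Of the defining markers of other cells, the leukocyte gene CD3E was at 0 in every library, PTPRC did not exceed 0.198 CPM, the endothelial gene PECAM1 did not exceed 0.122 CPM, and the stromal receptor PDGFRB did not exceed 0.0693 CPM. The 8 fibroblast markers together gave 0.629 to 48.3 CPM in MDCK-II and 14.5 to 841 CPM in untreated MDCK-NBL2. After TGFb in MDCK-NBL2 they gave 2110 to 5050 CPM, with 3800 to 4330 CPM under siCTR and 1580 to 2920 CPM under siPRRX1. Their part in the protease values was not tested. Among untreated MDCK-NBL2 cells, the library labelled day 4 replicate 2 stood apart: the TGFb response gene TGFBI was at 1580 CPM there against 0.325 and 0.229 CPM in replicates 1 and 3. The collagen gene COL1A1 was at 596 CPM there and at 0 in both others. Results on the 8 proteases that use that group are given with and without it, and for other genes the value without it is given where it moved a count, a median or a call. Of 5 TGFb response genes, 5 rose with TGFb in MDCK-II, and in MDCK-NBL2 none passed by edgeR with that library (4 at an unadjusted p under 0.05, 3 by DESeq2) and 5 rose without it. In the day 0 library of MDCK-NBL2 labelled replicate 1, PRRX1 was at 7.07 CPM against 0.661 and 0.404 CPM in replicates 2 and 3.

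Of the 8 proteases, ADAM12, ADAM19 and ADAMTS6 were at or near 0 in MDCK-II and present in MDCK-NBL2, and the other 5 were present in both lines. ADAM12, which has a membrane form and a secreted form and is known from remodelling mesenchyme, had no count in any of the 9 MDCK-II libraries. In MDCK-NBL2 it was at 45.3, 17.8 and 21.1 CPM at day 0, at 1.62, 17.6 and 7 CPM untreated at day 4, and at 29.2, 31.9 and 35.2 CPM after TGFb. All 9 of these MDCK-NBL2 libraries thus lay above all MDCK-II libraries. In such bulk libraries, fewer cells carrying a transcript and less of it per cell cannot be told apart. Against the limit that a count of 0 allows, 3 counts over the group, the MDCK-NBL2 level was at least 417-fold higher at day 0, at least 168-fold higher untreated at day 4 and at least 510-fold higher after TGFb. That limit covers counting error only and stood at 0.0569 to 0.0633 CPM for the MDCK-II groups. Without replicate 2 the untreated day 4 mean of ADAM12 in MDCK-NBL2 was 4.31 CPM, against 8.74 CPM with it. Replicate 2 held 476 of the 577 counts behind the 168-fold value, which thus rests mainly on that library.

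ADAM19, a relative of ADAM12 with roles in neuregulin shedding and heart development, gave a single count in MDCK-II, in TGFb replicate 3 (0.112 CPM). In MDCK-NBL2 it was at 1.32, 0.628 and 1.08 CPM at day 0. Untreated at day 4 it was at 0, 8.02 and 0.115 CPM, with replicate 2 far above the others. After TGFb it reached 256, 133 and 146 CPM. The line difference in level was at least 14.2-fold at day 0 and at least 63.5-fold untreated at day 4, although replicate 1 of that group was at 0 and the value rests on replicate 2. After TGFb the ratio was 8040 from pooled counts and 4800 from the library means. The MDCK-II side rested on 1 count, so the size of this ratio is poorly known.

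ADAMTS6 was low in MDCK-II, between 0.0393 and 0.657 CPM over its 9 libraries. In MDCK-NBL2 it was at 2.22, 0.496 and 0.808 CPM at day 0, at 0.812, 9.32 and 0.803 CPM untreated at day 4, and at 11.9, 12.2 and 9.02 CPM after TGFb. The mean level in MDCK-NBL2 was 10.1 times that of MDCK-II at day 0, 28.3 times untreated at day 4 and 34.9 times after TGFb, and in each of the 3 states the lines did not overlap. The value of 28.3 rests on replicate 2. Without it the untreated day 4 mean of MDCK-NBL2 was 0.808 CPM, against 0.129 CPM in MDCK-II and 1.17 CPM in MDCK-NBL2 at day 0. ADAM12, ADAM19 and ADAMTS6 passed the filter on low counts through MDCK-NBL2.

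ADAM9, ADAM10 and ADAM17 differed little between the lines, and none of their 9 line ratios exceeded 1.36. Some of these small differences were without overlap, and the share of all genes without overlap was not counted, here or in the other comparisons. ADAM9 at day 0 and untreated at day 4, and ADAM17 at day 0, were higher in all MDCK-II libraries. ADAM10 untreated at day 4 and after TGFb was higher in all MDCK-NBL2 libraries. ADAM9 was highest in untreated MDCK-II at day 4 (398, 363 and 368 CPM) and lowest in MDCK-NBL2 at day 0 (222, 184 and 230 CPM), and between these extremes 6 groups with means from 263 to 314 CPM overlapped with their neighbours in the order of levels. The highest group mean was only 1.77 times the lowest. ADAM17, the TNF-converting enzyme, had its highest mean in the same MDCK-II group (179, 159 and 186 CPM), and its lowest in siPRRX1 cells (64.7, 78.9 and 67 CPM), which lay below every other library of the study. The groups between them, 106 to 144 CPM on average, overlapped with their neighbours.

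ADAM10, the main Notch and cadherin sheddase, ordered the groups differently. Its 3 highest groups were all TGFb-treated MDCK-NBL2 groups, siPRRX1 (190, 200 and 214 CPM), siCTR (172, 171 and 183 CPM) and TGFb without siRNA (158, 152 and 166 CPM), and these did not overlap with each other. TGFb-treated MDCK-II followed at 145, 136 and 136 CPM. Untreated MDCK-NBL2 at day 4 came next at 111, 154 and 113 CPM, overlapping with TGFb-treated MDCK-II only through its replicate 2. The other 3 groups were untreated and lay between 102 and 128 CPM.

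ADAMTS4, an aggrecanase, was at 3.59, 3.3 and 2.76 CPM in MDCK-II at day 0 and at 4.29, 3.08 and 3.23 CPM in MDCK-NBL2 at day 0, so the lines overlapped there. After TGFb it was at 8.31, 8.21 and 8.15 CPM in MDCK-II and at 25.9, 20.5 and 17.4 CPM in MDCK-NBL2, where the mean was 2.59 times higher and the libraries did not overlap. ADAMTS1, which cuts versican and also restrains angiogenesis, ran the other way. It was at 22.1, 22.2 and 34.4 CPM in MDCK-II and 17.9, 23.9 and 37.7 CPM in MDCK-NBL2 at day 0, and at 3.52, 14.3 and 6.81 CPM and 5.56, 5.6 and 12.9 CPM after TGFb. In untreated MDCK-NBL2 at day 4 the 3 libraries spread from 119 over 54.6 down to 2 CPM in replicate 2, the widest spread within a group for ADAMTS1.

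**Figure D1:**
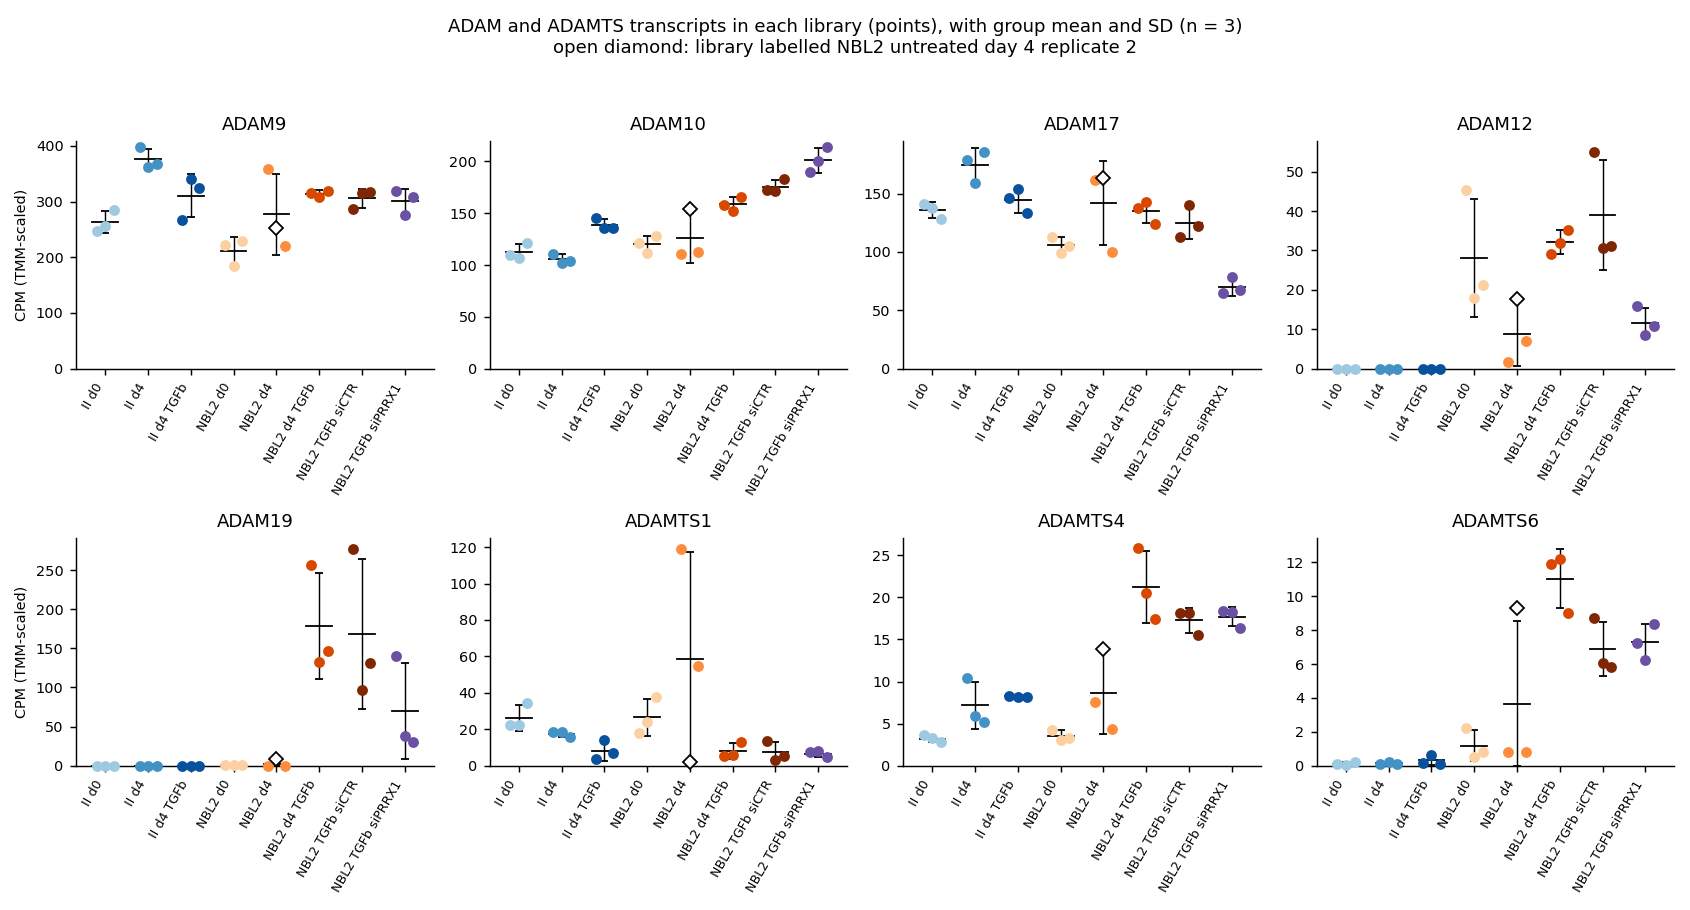
Level in CPM (linear axis from 0) of each of the 8 proteases in all 24 libraries, by line, day and treatment, with the group mean and SD (n = 3). ADAM12 and ADAM19 lie at 0 in MDCK-II except for a single count of ADAM19, ADAM17 is lowest in the siPRRX1 group (64.7 to 78.9 CPM), and the open diamond, day 4 replicate 2 of untreated MDCK-NBL2, stands above its group for ADAM10, ADAM12, ADAM19, ADAMTS4 and ADAMTS6 and below it for ADAMTS1.

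TGFb treatment of MDCK-NBL2 cells asked which transcripts accompany the full EMT state. At day 4, ADAM19, ADAM12, ADAMTS4 and ADAM10 rose and ADAMTS1 fell among the 8 proteases, 5 of 8 in all. Of all 12466 genes tested, 44.3% passed the same threshold (21% higher and 23.4% lower), so a call was common in this comparison, and the members had been chosen with these values known. ADAM19 rose by a log2 fold change of 5.85 ± 1.03 (SE, adjusted p = 0.00044, edgeR quasi-likelihood test), with 133 to 256 CPM treated and 0 to 8.02 CPM untreated. ADAM12 rose by 1.86 ± 0.61 on the log2 scale (adjusted p = 0.024), and its libraries did not overlap. ADAMTS4 rose by 1.26 ± 0.29 (adjusted p = 0.002), also without overlap. ADAM10 rose by the small amount of 0.33 ± 0.11 (adjusted p = 0.017), and here untreated replicate 2 reached into the treated range. ADAMTS1 fell, with a log2 fold change of -2.87 ± 0.85 (adjusted p = 0.011), although untreated replicate 2, at 2 CPM, lay below all treated libraries. ADAMTS6 did not pass, with 1.52 ± 0.65 and an adjusted p of 0.064, and neither did ADAM9 (0.18, adjusted p = 0.32) or ADAM17 (-0.08, adjusted p = 0.7). With the replicate number as a block in the edgeR fit of all libraries, ADAMTS6 passed (1.74 ± 0.67, adjusted p = 0.043). The median log2 fold change was 0.8 over the 8 members (1.14 without untreated replicate 2) and -0.04 over all genes tested.

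The library labelled untreated replicate 2 lay on the treated side of its group for 6 of these genes. Without it, 5 members rose and 1 fell, beside 54.8% of 12574 genes tested. ADAMTS6 then rose by 3.75 ± 0.54 (adjusted p = 9.7e-06), ADAM12 by 3.06 ± 0.59 (adjusted p = 0.00063), ADAMTS4 by 1.78 ± 0.26 and ADAM10 by 0.5 ± 0.09, and ADAMTS1 fell by 3.44 ± 0.54. For ADAM19 only 1 count remained in untreated replicates 1 and 3, and TGFb-treated libraries held 3401 counts, a ratio of 5650 with a 95% counting interval from 1010 to 223000. In the other direction, the ADAMTS1 call ended without untreated replicate 1, the library at 119 CPM (-1.77, adjusted p = 0.1), and the ADAM10 call ended without untreated replicate 1 (adjusted p = 0.091), untreated replicate 3 (0.076) or treated replicate 3 (0.062). The ADAM12 call ended without untreated replicate 3 (adjusted p = 0.068) or treated replicate 3 (0.058), while ADAM9 passed without untreated replicate 1 (0.41, adjusted p = 0.015). Treated replicate 1 carries a library number from another series than the other 5; without it, within a single series, ADAM19 rose by 5.5, ADAM12 by 1.92, ADAMTS4 by 1.1 and ADAM10 by 0.33 on the log2 scale, and ADAMTS1 fell by 2.68. When only these 6 libraries were fitted, edgeR called no member (4 at an unadjusted p under 0.05) and the count over all genes dropped from 5525 to 510.

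In MDCK-II, where the same treatment accompanies partial EMT, ADAM10 was the only one of 6 tested members to pass. ADAM10 rose by 0.4 ± 0.11 on the log2 scale (adjusted p = 0.014), from 111, 102 and 104 CPM untreated to 145, 136 and 136 CPM treated, without overlap, and the call held without each library in turn (adjusted p up to 0.049) and with the replicate block (0.016). Over all genes 21.1% passed. ADAM9 had a value of -0.28 ± 0.14 (adjusted p = 0.17) and ADAM17 one of -0.27 ± 0.14 (adjusted p = 0.18). ADAMTS1 lay at 3.52 to 14.3 CPM treated and 15.5 to 18.4 CPM untreated, without overlap, but with -1.04 ± 0.79 it missed the threshold (adjusted p = 0.37). ADAMTS4 (0.2 ± 0.3, adjusted p = 0.68) did not pass. ADAMTS6 had only 8 counts untreated and 21 counts treated, each over 3 libraries, and entered the test through its MDCK-NBL2 counts. A fit of these groups alone left it out and tested 5 members, so no change of ADAMTS6 could be detected or excluded in MDCK-II at this depth, nor in the difference of responses. ADAM12 and ADAM19 were not tested, with no count and 1 count in the 6 libraries. The median of the 6 members was -0.04, against -0.03 over all genes.

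The difference of the TGFb responses, MDCK-NBL2 minus MDCK-II, was called for none of the 6 members tested, ADAMTS6 with few counts included, by edgeR (2 at an unadjusted p under 0.05) and none by DESeq2, beside 5.7% of all genes. It was largest for ADAMTS1 (-1.82 ± 1.14, adjusted p = 0.36) and ADAMTS4 (1.06 ± 0.41, adjusted p = 0.13). Without untreated replicate 2 of MDCK-NBL2 both passed, ADAMTS4 with 1.58 ± 0.34 (adjusted p = 0.0035) and ADAMTS1 with -2.42 ± 0.72 (adjusted p = 0.022), beside 21.1% of all genes in that fit. The ADAM9 difference, 0.46 in the full set (adjusted p = 0.18), passed only without MDCK-NBL2 untreated day 4 replicate 1 (0.68, adjusted p = 0.022). For ADAM10, present in both lines and called in each, the difference was -0.07 (adjusted p = 0.85).

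**Figure D2:**
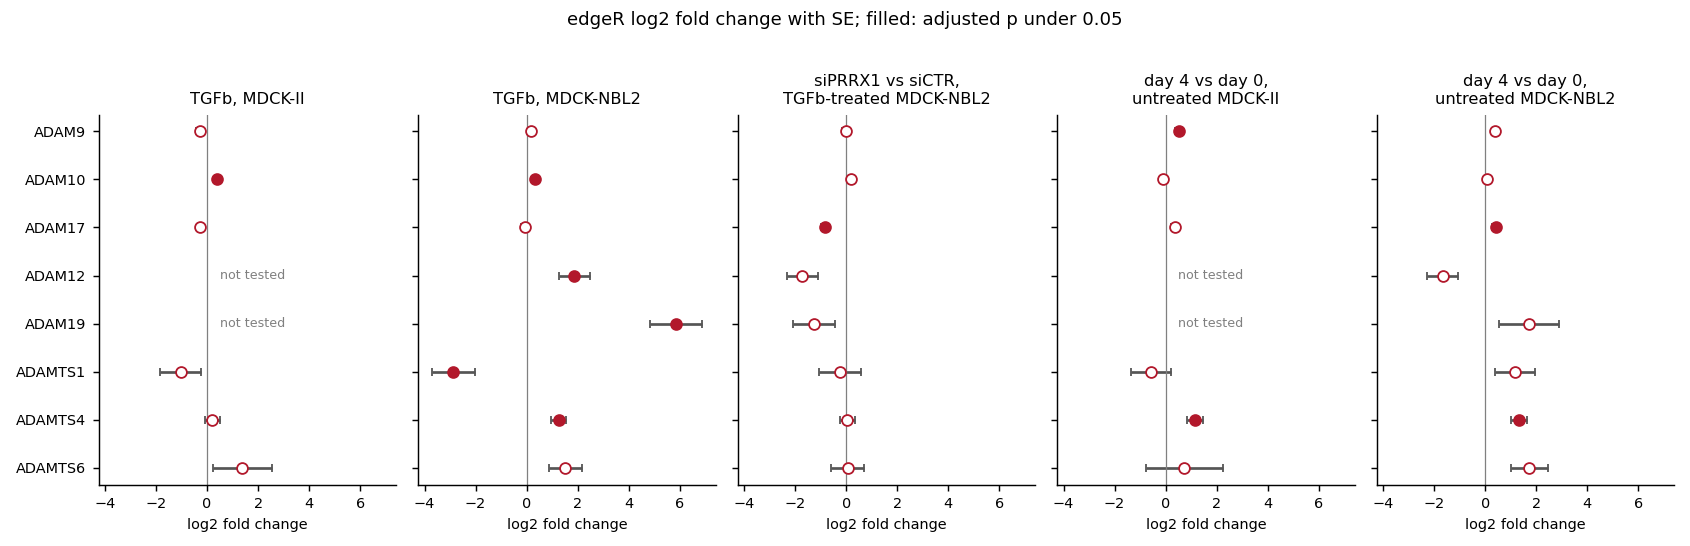
Log2 fold change with SE of each protease in 5 comparisons (edgeR; filled points have an adjusted p under the threshold of 0.05). ADAM19 has the largest value, 5.85 with TGFb in MDCK-NBL2, ADAM10 is filled in both TGFb panels, and ADAM17 (-0.83) is the only filled point for siPRRX1.

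Knockdown of PRRX1 in TGFb-treated MDCK-NBL2 cells asked which of the transcripts of the EMT state differ between siPRRX1 and siCTR. With siCTR as the only comparison, an effect of the siRNA on other transcripts cannot be told apart from loss of PRRX1. PRRX1 itself was at 33.9, 7.35 and 3.88 CPM in siCTR and at 1.11, 0.339 and 0 CPM in siPRRX1 replicates 1 to 3, a log2 fold change of -4.64 ± 1.17 (adjusted p = 0.043). All 3 siPRRX1 libraries lay below all siCTR libraries, although the PRRX1 call ended without each of the 6 libraries in turn (adjusted p from 0.056 to 0.3). With the replicate block it stood at -4.67 (adjusted p = 0.021).

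ADAM17 was the member that changed with siPRRX1. It stood at 113, 140 and 122 CPM in siCTR and at 64.7, 78.9 and 67 CPM in siPRRX1, so the libraries did not overlap. Against the siCTR library of the same number the siPRRX1 level was 57.5% in pair 1, 56.2% in pair 2 and 54.8% in pair 3, nearly the same in each. The log2 fold change was -0.83 ± 0.15 (adjusted p = 0.0039), in a comparison where 2% of all genes passed. The ADAM17 call held in every alternative run, from -0.93 to -0.74 without each library in turn, where the adjusted p stayed between 0.0015 and 0.042. ADAM17 had not passed with TGFb itself in MDCK-NBL2 (138, 143 and 124 CPM treated, 162, 163 and 100 CPM untreated), and its siPRRX1 libraries lay below both of these groups and below the day 0 cells (113, 99.2 and 105 CPM).

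ADAM12 and ADAM19 were lower in siPRRX1 in every pair, with calls that depended on the fit. ADAM12 stood at 55, 30.7 and 31.1 CPM in siCTR and at 15.9, 8.47 and 10.7 CPM in siPRRX1, which is 29%, 27.6% and 34.6% of the siCTR level in pairs 1 to 3, and the groups did not overlap. Its log2 fold change of -1.72 ± 0.6 missed the threshold (adjusted p = 0.19; 0.21 with the replicate block in all libraries). With the replicate block in a fit of the 6 siRNA libraries alone it was -1.73 ± 0.1 (adjusted p = 5.2e-05), and without the library labelled untreated day 4 replicate 2, which enters only through the shared estimate of spread, the adjusted p was 0.045. ADAM19 stood at 277, 96.8 and 131 CPM in siCTR and at 140, 38.5 and 29.7 CPM in siPRRX1, with overlap, or 50.3%, 39.8% and 22.6% pair by pair. Its value was -1.27 ± 0.83 (adjusted p = 0.52), -1.42 (adjusted p = 0.44) with the replicate block in all libraries, and -1.41 ± 0.17 (adjusted p = 0.00089) with the block in the siRNA libraries alone. In siPRRX1 cells ADAM19 nevertheless stayed above every untreated MDCK-NBL2 library, the highest of which was 8.02 CPM.

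None of the other 5 members passed in the fit of all libraries. ADAM10 was at 111%, 117% and 117% of siCTR (0.2 ± 0.11, adjusted p = 0.4), and with the replicate block in the siRNA libraries alone it passed (adjusted p = 0.043). In that paired fit 22.5% of 11239 genes passed, against 2% in the fit of all libraries (2528 and 249 genes; 263 with the block in all libraries), and 1 member rose and 3 fell. ADAMTS4 was at 102%, 100% and 106% of siCTR (0.04, adjusted p = 0.98) and ADAM9 at 112%, 87.4% and 97.2% (-0.02, adjusted p = 0.98). ADAMTS6 was at 83.5%, 102% and 143%, and ADAMTS1, at a few CPM, scattered from 53% to 271%. Without the library labelled untreated day 4 replicate 2, ADAM12 and ADAM17 were the 2 members called, beside 5.21% of all genes. The siCTR and siPRRX1 libraries of pair 1 belong to one library number series and those of pairs 2 and 3 to another, so the pair values above are also the values within each series.

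**Figure D3:**
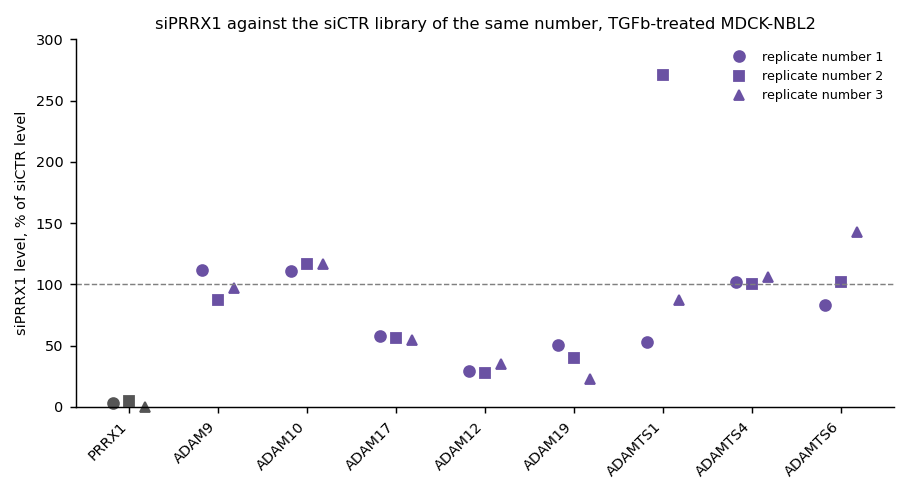
Level of PRRX1 and of each protease in siPRRX1 libraries as a percent of the siCTR library with the same replicate number (linear axis from 0; the dashed line marks equal levels). ADAM17 sits between 54.8% and 57.5%, ADAM12 between 27.6% and 34.6% and ADAM19 between 22.6% and 50.3%, while ADAMTS4 sits at 100% to 106%.

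Culture time without TGFb also moved some members. In MDCK-II from day 0 to day 4, ADAM9 rose by 0.52 ± 0.14 (adjusted p = 0.028) from 247, 257 and 285 CPM to 398, 363 and 368 CPM, and ADAMTS4 rose by 1.14 ± 0.31 (adjusted p = 0.026) to 10.4, 5.89 and 5.19 CPM, both without overlap. Over all genes 9.81% passed, and the other 4 tested members did not, ADAMTS6 among them with only 4 and 8 counts. The ADAM9 call ended without any one of day 0 replicates 1, 2 and 3 or day 4 replicates 1 and 3 (adjusted p from 0.053 to 0.11). The ADAMTS4 call ended without any day 0 replicate or day 4 replicate 1 (adjusted p from 0.05 to 0.18).

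In MDCK-NBL2, which shares the untreated day 4 libraries with the TGFb comparison, ADAMTS4 rose by 1.32 ± 0.31 from day 0 (adjusted p = 0.01) and ADAM17 by 0.42 ± 0.14 (adjusted p = 0.047), beside 17.7% of all genes. The ADAMTS4 call ended without day 0 replicate 2 (adjusted p = 0.054). The ADAM17 call ended without any of 5 of the 6 libraries (adjusted p from 0.07 to 0.19; day 4 replicate 3 was the exception). Without the library labelled day 4 replicate 2, 14.6% of all genes passed, ADAM12 fell by 2.87 ± 0.58 (adjusted p = 0.009), ADAMTS1 rose by 1.74 ± 0.49 (adjusted p = 0.026) and ADAMTS4 by 0.81 ± 0.27 (adjusted p = 0.048). With it, ADAM12 had -1.67 ± 0.6 (adjusted p = 0.068; -1.13, adjusted p = 0.22, without day 0 replicate 1, the ADAM12 library at 45.3 CPM) and ADAMTS1 had 1.16 (adjusted p = 0.27). ADAM9 passed without day 4 replicate 3 (0.52, adjusted p = 0.0055), and ADAMTS6 without day 4 replicate 1 or 3 (adjusted p down to 0.017). ADAM19 had 1.71 (adjusted p = 0.3) with that library and -4.57 (adjusted p = 0.16) without it.

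The other genes of the system were taken from 7 lists written with earlier results known, and each is given as counts of tested genes. With TGFb, 21.1% of all genes passed in MDCK-II (11.8% higher and 9.27% lower) and 44.3% in MDCK-NBL2 (21% higher and 23.4% lower). Among other ADAM genes, 0 of 6 changed with TGFb in MDCK-II by edgeR or DESeq2 (0 at an unadjusted p under 0.05), and 1 rose and 2 fell in MDCK-NBL2. There ADAM22, a neuronal adhesion protein without protease activity, rose by 2.05 ± 0.57, ADAM28 fell by 2.21 ± 0.5 and ADAM15 fell by 0.7 ± 0.27 (adjusted p = 0.0069, 0.0018 and 0.037). The ADAM15 call ended without untreated replicates 1 or 2 or treated replicates 2 or 3 (adjusted p from 0.051 to 0.29). Among other ADAMTS and ADAMTS-like genes, 3 of 9 rose and 1 fell in MDCK-II, where ADAMTSL3 had 3.95 ± 0.93 (adjusted p = 0.0063), ADAMTS7 2.21 ± 0.65 (0.022) and ADAMTS9, a versican-cutting enzyme, -1.44 ± 0.45 (0.03). The ADAMTS7 call ended without untreated replicate 2 or 3 or treated replicate 1, and the ADAMTS9 call without 5 of the 6 libraries (all but untreated replicate 1; adjusted p up to 0.092 for both). In MDCK-NBL2, 5 of 9 rose and 0 fell, led by ADAMTS2, the procollagen N-proteinase, with 3.74 ± 0.8 (adjusted p = 0.0011), ADAMTSL3 with 2.75 ± 0.62 (0.0016) and ADAMTS17 with 2.95 ± 0.64 (0.0018). Without the library labelled untreated replicate 2, ADAMTS2 stood at 7.9 and ADAMTSL3 at 4.3.

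The inhibitors changed in both lines and in opposite directions among themselves. TIMP1, an inhibitor of many metalloproteases with reported activity on ADAM10, fell by 4.59 ± 0.86 in MDCK-II (adjusted p = 0.0014), from 3.17, 14.4 and 12.1 CPM to 0.181, 0.548 and 0.335 CPM. In MDCK-NBL2 it fell by 4.04 ± 0.68 (adjusted p = 0.00018), from 204, 24 and 72.7 CPM to 6.14, 6.33 and 5.71 CPM. No treated library reached an untreated library of its line. Of the 6 genes of this list, 4 rose and 1 fell in MDCK-II and 5 rose and 1 fell in MDCK-NBL2. Beside them, 21.1% of all genes passed in MDCK-II and 44.3% in MDCK-NBL2. LRP1, the endocytic receptor that clears ADAMTS enzymes and TIMPs, rose by 2.35 ± 0.53 in MDCK-II and 1.84 ± 0.52 in MDCK-NBL2 (adjusted p = 0.005 and 0.0077; 2.96 in MDCK-NBL2 without the library labelled untreated replicate 2). TIMP4 rose by 3.16 ± 0.81 in MDCK-II (adjusted p = 0.011), and TIMP2 by 1.47 ± 0.35 in MDCK-NBL2 (adjusted p = 0.0025; 2.27 without that library). The list median was 1.42 in MDCK-II and 1.41 in MDCK-NBL2, or 2.29 in MDCK-NBL2 without that library.

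Among the partners that cut, carry or escort the proteases, 3 of 12 rose and 1 fell in MDCK-II, and 3 rose and 3 fell in MDCK-NBL2. Calls over all genes were 21.1% in MDCK-II and 44.3% in MDCK-NBL2. FURIN, the main convertase of the precursors, rose by 1.38 ± 0.28 in MDCK-II (adjusted p = 0.0024), TSPAN33, a TspanC8 tetraspanin, by 3.12 ± 0.74 (0.0067) and the convertase PCSK7 by 0.35 ± 0.1 (0.023). The PCSK7 call ended without untreated replicate 1 or treated replicates 2 or 3 (adjusted p from 0.068 to 0.096). In MDCK-NBL2 the tetraspanins of the TspanC8 group, which escort ADAM10 to the surface, moved in both directions. TSPAN17 rose by 0.94 ± 0.12 (adjusted p = 1.8e-05) from 55, 73.8 and 72.5 CPM to 129, 127 and 129 CPM. TSPAN15 fell by 2.77 ± 0.51 (adjusted p = 0.00036) from 131, 46.2 and 51.2 CPM to 12.3, 10.5 and 11 CPM, and TSPAN14 fell by 1.2 ± 0.25 (adjusted p = 0.00098) from 60.4, 42.3 and 25.5 CPM to 21.1, 16 and 19.2 CPM. Treated and untreated libraries did not overlap for any of the 3.

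The difference of responses between the lines was called for 3 of 12 partners, 2 of 26 shed proteins and 1 of 12 matrix genes, and by edgeR or DESeq2 for no other ADAM, ADAMTS, inhibitor or EGF family gene (1, 2, 0 and 1 at an unadjusted p under 0.05). Over all genes 5.7% passed. Without untreated replicate 2 of MDCK-NBL2, 21.1% of all genes passed. In that fit 8 of 26 shed proteins (5 higher, 3 lower), 3 of 12 matrix genes and the same 3 of 12 partners were called. So were 2 of 6 inhibitors, 1 of 6 other ADAM genes and 1 of 9 other ADAMTS genes, but none of 9 EGF family genes. The 3 partners were TSPAN14, TSPAN15 and TSPAN17. In MDCK-II, TSPAN15 was at 39.7, 13.8 and 14 CPM untreated and 41.7, 12.4 and 14.5 CPM after TGFb, and TSPAN17 was at 86.9, 85.8 and 80.2 CPM and 81.4, 102 and 95 CPM. TSPAN14 was at 28.2, 16.9 and 17.9 CPM and 28.2, 23 and 24.8 CPM. The difference of responses was 0.8 ± 0.16 for TSPAN17 (adjusted p = 0.009), -1.47 ± 0.35 for TSPAN14 (0.022) and -2.78 ± 0.69 for TSPAN15 (0.025). The TSPAN17 call held without each library in turn. The TSPAN14 call ended without MDCK-II untreated replicate 2 or 3 or MDCK-NBL2 treated replicate 2 (adjusted p up to 0.056). The TSPAN15 call ended without 7 libraries: those 3, the other 2 treated MDCK-NBL2 libraries, MDCK-II treated replicate 1 and MDCK-NBL2 untreated replicate 1 (adjusted p up to 0.075). In a fit of only these 4 groups none of the 3 passed (adjusted p = 0.13 for TSPAN17, 0.14 for TSPAN14 and 0.16 for TSPAN15).

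**Figure D4:**
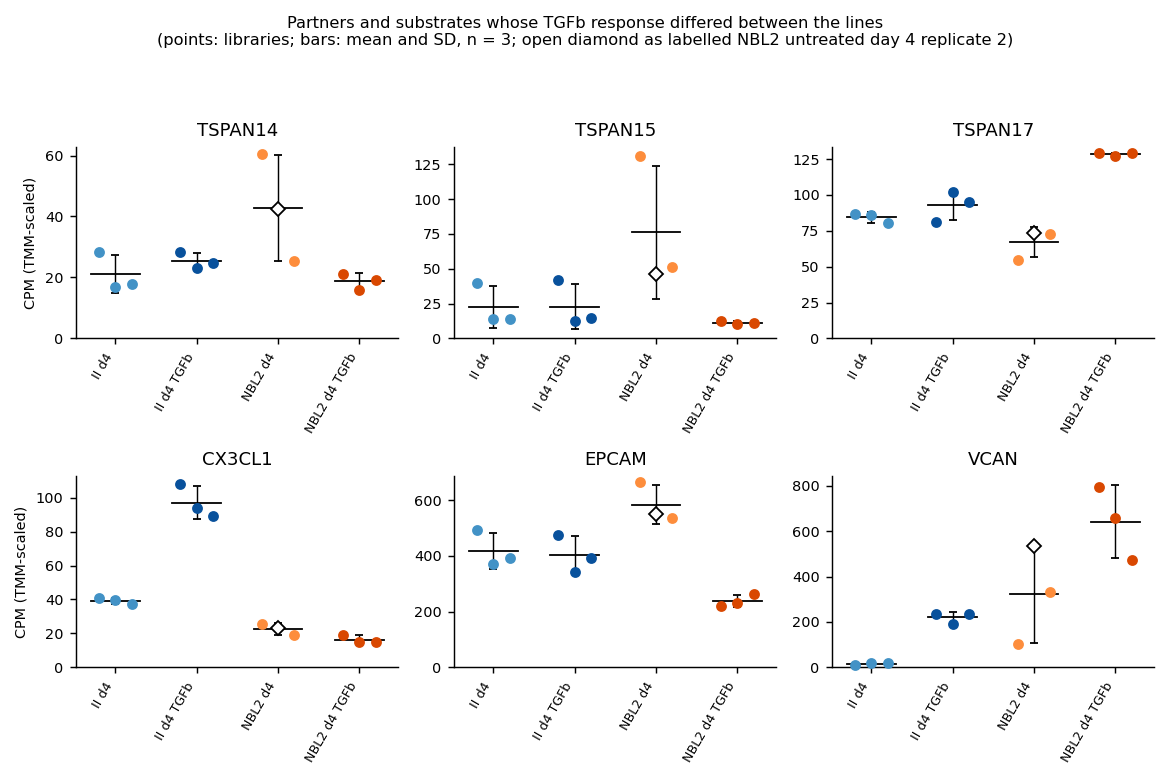
Level in CPM (linear axis from 0) of 3 tetraspanins that escort ADAM10 and 3 sheddase or ADAMTS substrates, untreated and TGFb-treated at day 4, by line, with mean and SD (n = 3). TSPAN15 sits at 10.5 to 12.3 CPM in treated MDCK-NBL2 and TSPAN17 at 127 to 129 CPM, while CX3CL1 is high (89.4 to 108 CPM) in treated MDCK-II.

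Substrates were counted in 3 lists. Of 9 EGF family ligands and receptors, 3 rose in MDCK-II and 2 fell in MDCK-NBL2. Among all genes, 11.8% rose in MDCK-II and 23.4% fell in MDCK-NBL2. EGFR rose by 1.17 ± 0.21 in MDCK-II (adjusted p = 0.00099), the ligand EREG by 1.59 ± 0.45 (0.019) and the ligand NRG1 by 1.02 ± 0.35 (0.041). The EREG call ended without treated replicate 2 or 3 (adjusted p up to 0.088) and the NRG1 call without any of the 6 libraries (up to 0.12). In MDCK-NBL2 the receptors ERBB2 and ERBB3 fell by 0.68 ± 0.18 and 1.21 ± 0.42 (adjusted p = 0.0054 and 0.025), and the ERBB3 call ended without untreated replicate 1 or 2 or treated replicate 2 or 3 (adjusted p from 0.063 to 0.12). Without the library labelled untreated replicate 2 the list count in MDCK-NBL2 was 1 up and 1 down, beside 27.1% and 27.7% of all genes.

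Of 26 other shed membrane proteins, LRP1 again among them, 9 rose in MDCK-II and none fell, and 12 rose and 7 fell in MDCK-NBL2. All genes gave 11.8% higher and 9.27% lower in MDCK-II, and 21% higher and 23.4% lower in MDCK-NBL2. The membrane chemokine CX3CL1, a substrate of ADAM10 and ADAM17, rose by 1.31 ± 0.14 in MDCK-II (adjusted p = 1.5e-05) from 40.6, 39.6 and 37.4 CPM to 108, 94.1 and 89.4 CPM. In MDCK-NBL2 it was at 25.8, 23.3 and 18.9 CPM untreated and 19.2, 14.7 and 15.2 CPM treated, and the difference of responses was -1.79 ± 0.2 (adjusted p = 0.00013; 0.0042 with only these groups). The Notch ligand JAG1 rose by 2.37 ± 0.41 and the proteoglycan SDC1 by 1.34 ± 0.25 in MDCK-II (adjusted p = 8e-04 and 0.0013). In MDCK-NBL2 the hyaluronan receptor CD44 rose by 1.43 ± 0.24, ICAM1 rose by 2.23 ± 0.4 and the epithelial adhesion protein EPCAM fell by 1.3 ± 0.2 (adjusted p = 0.00019, 0.00032 and 0.00011). The EPCAM response differed between lines by -1.24 ± 0.29 (adjusted p = 0.017; 0.055 with only these groups).

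Of the matrix proteins that ADAMTS enzymes cut or bind, 7 of 12 rose in MDCK-II and 10 of 12 in MDCK-NBL2, with none lower. Over all genes 11.8% rose in MDCK-II and 21% in MDCK-NBL2. The list median was 2.39 on the log2 scale in MDCK-II and 2.31 in MDCK-NBL2, or 4.77 in MDCK-NBL2 without the library labelled untreated replicate 2. Versican (VCAN), the substrate of ADAMTS1 and ADAMTS4, rose by 3.74 ± 0.44 in MDCK-II (adjusted p = 3.1e-05), from 11.9, 17.1 and 20.8 CPM to 233, 190 and 237 CPM. Thrombospondin THBS1 rose by 3.49 ± 0.59 and fibronectin FN1 by 3.91 ± 0.76 (adjusted p = 0.00068 and 0.0018). In MDCK-NBL2 the microfibril protein FBN1 rose by 5.43 ± 0.7, SPARC by 4.97 ± 0.89 and the basement membrane protein NID2 by 2.37 ± 0.51 (adjusted p = 3.9e-05, 0.00038 and 0.0011). Without the library labelled untreated replicate 2 all 12 rose, beside 27.1% of all genes, with FBN1 at 9.9, SPARC at 8.01 and NID2 at 3.74. VCAN was already at 103, 535 and 334 CPM in untreated MDCK-NBL2 and at 794, 660 and 475 CPM after TGFb, and its response differed between lines by -2.75 ± 0.57 (adjusted p = 0.01; VCAN had 0.11 with only these groups).

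With siPRRX1, CDH1 rose and VCAN fell in the fit of all libraries, where 2% of all genes passed. Of the other 5 lists edgeR called no gene, and 0 to 4 genes per list had an unadjusted p under 0.05. DESeq2 called 1 EGF family gene lower. With the replicate block in all libraries edgeR called 1 EGF family gene, the ligand AREG, higher, a gene named after its value was seen. Leaving out the library labelled untreated day 4 replicate 2, 1 other ADAMTS gene was called higher, 1 EGF family gene lower, and 1 shed protein higher and 2 lower, beside 5.21% of all genes. The adherens protein CDH1, an ADAM10 substrate, rose by 0.68 ± 0.16 (adjusted p = 0.033) from 727, 931 and 898 CPM to 1150, 1390 and 1550 CPM. VCAN fell by 1.92 ± 0.4 (adjusted p = 0.017) from 625, 601 and 487 CPM to 188, 180 and 84.3 CPM. Neither gene's groups overlapped. The VCAN call ended without siCTR replicate 1 or siPRRX1 replicate 3, and the CDH1 call without those libraries, siCTR replicate 2 or 3 or siPRRX1 replicate 2 (adjusted p up to 0.21 for CDH1 and 0.13 for VCAN). With the replicate block in the siRNA libraries alone, 22.5% of 11239 genes passed. Of 7 EGF family genes 5 rose and 1 fell, of 24 shed proteins 4 rose and 8 fell, and of 11 partners 2 rose and 3 fell. Of 8 other ADAMTS genes 1 rose and 3 fell, and of 11 matrix genes 2 rose and 3 fell. Of 6 inhibitors 1 (TIMP3) fell, and 0 of 4 other ADAM genes were called.

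In untreated MDCK-II, 9.81% of all genes passed from day 0 to day 4 (5.76% higher and 4.05% lower). Of the related genes, 1 of 12 partners rose and 1 fell. Lower were 1 of 9 EGF family genes, 2 of 26 shed proteins and 1 of 12 matrix genes. None of the 6 other ADAM, 9 other ADAMTS or 6 inhibitor genes was called by edgeR or DESeq2 (0, 1 and 0 at an unadjusted p under 0.05). There VCAN fell by 3.63 ± 0.44 from day 0 to day 4 (adjusted p = 0.00011), from 221, 181 and 211 CPM to the low values above, and CX3CL1 fell by 0.65 ± 0.14 (adjusted p = 0.0064). EPHB2 fell by 2.27, NRG1 by 1.13 and PCSK7 by 0.43, and TSPAN15 rose by 1.98 (adjusted p = 0.0099, 0.044, 0.014 and 0.018). Those 4 calls ended without some libraries: day 0 replicate 1 or 2 for PCSK7, TSPAN15 and NRG1, day 0 replicate 3 for TSPAN15 and NRG1, day 4 replicate 1 for all 4, and day 4 replicates 2 or 3 for NRG1 (adjusted p from 0.05 to 0.17).

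In untreated MDCK-NBL2, 17.7% of all genes passed (12.4% higher and 5.26% lower). Of the lists, 1 other ADAM gene rose and 1 fell, and 3 other ADAMTS genes, 1 inhibitor, 4 partners and 2 matrix genes rose. Then 2 EGF family genes rose and 2 fell, and 4 shed proteins rose and 1 fell. Without the library labelled day 4 replicate 2, 14.6% of all genes passed. The matrix list turned, with 0 higher and 3 lower, and none of the other ADAMTS genes or inhibitors passed. In that fit 5 shed proteins rose and 4 fell, 3 partners rose, 1 EGF family gene rose and 1 fell, and 1 other ADAM gene rose. NOTCH1 rose by 1.25 ± 0.22, NOTCH3 by 4.17 ± 0.84 and ERBB3 by 1.86 ± 0.42 from day 0 to day 4 (adjusted p = 0.0032, 0.0053 and 0.0091), and these 3 calls held without each library in turn. The other 14 named genes lost their call without at least 1 library. ADAM15 rose by 1.08, ADAMTS7 by 2.11, ADAMTSL3 by 2.81, ADAMTSL4 by 1.32, TSPAN14 by 0.99, TSPAN15 by 1.61, RHBDF1 by 0.73, ERBB2 by 0.69 and DAG1 by 0.52, while ADAM22 fell by 1.68 and NRG1 by 1.47 (adjusted p from 0.012 to 0.035). TIMP4 rose by 3.38, THBS1 by 1.79 and IGFBP5 by 5.87 (adjusted p = 0.047, 0.033 and 0.034), and these turned to -1.79, -0.1 and -1.32 without the library labelled day 4 replicate 2. That library also ended the calls of ADAM22, ADAMTS7, ADAMTSL3, ADAMTSL4 and ERBB2 (adjusted p from 0.055 up). Day 4 replicate 1 ended those of ADAM15, ADAM22, ADAMTSL4, TSPAN14, TSPAN15, RHBDF1, NRG1 and DAG1 (adjusted p from 0.051 to 0.21). Each of the 3 day 0 libraries ended 9 calls, among them ADAMTSL3, ADAMTSL4, TIMP4, RHBDF1, TSPAN15, THBS1 and IGFBP5 in each case (adjusted p from 0.053 to 0.35), and replicate 1 also ADAM22 and ERBB2, replicate 2 ADAM15 and ADAMTS7, and replicate 3 ADAM22 and ADAMTS7.

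The genes whose pattern over the 24 libraries was most like that of a member were found by Pearson's r of log2(CPM + 1) among 10278 genes with a symbol and a mean of at least 1 CPM. All points share the lines, treatments and library depths, so r is a description. For ADAM12 these were PDPN (r = 0.977), APBB1IP (0.975) and TGFB1I1 (0.967), for ADAM19 THRB (0.988), HMCN1 (0.983) and SLC8A3 (0.982), and for ADAMTS6 FLNC (0.979), HHIPL1 (0.978) and IL11 (0.978). ADAMTS4 was nearest to FAM214A (0.98), KCTD21 (0.979) and NOL4L (0.978), and ADAM10 to RBBP8 (0.961), C9H9orf16 (0.957) and AP1B1 (0.95). ADAM17, ADAM9 and ADAMTS1 had lower nearest values: CERK (0.898), ST3GAL4 (0.856) and POU6F1 (0.841) for ADAM17, DVL3 (0.875), ARFGAP3 (0.868) and PTPN14 (0.851) for ADAM9, and STRN (0.855), CAV2 (0.85) and DHTKD1 (0.843) for ADAMTS1. Among the members, ADAM19 ran most closely with ADAMTS6 (0.94) and ADAMTS4 (0.86), and ADAM10 with ADAM19 (0.83) and ADAMTS6 (0.83). ADAM10 and ADAM17, the 2 main sheddases, ran against each other over the same libraries (-0.59), as did ADAM10 and ADAMTS1 (-0.68).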

How the data were processed

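RNA-seq counts per gene of 24 libraries were used as deposited, as whole numbers without normalization. CanFam3.1 is the build that the submitters' processing notes list, beside FastQC, RSEM 1.3.0 and STAR 2.5.3a. Not given in the sources used here were tool order, strand setting, rounding and annotation release. Overlapping antisense genes can therefore share reads. Groups were read from the labels. The TGFb dose is left out because its unit in the labels is doubtful.

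The members, the related lists and the tests were chosen with earlier results of these data known. edgeR 4.0.16 in R 4.3.3 (TMM scaling, filterByExpr with a minimum count of 10 and total of 15, quasi-likelihood test, 16 residual degrees of freedom) was fitted to all libraries with 1 mean per group, and p was adjusted by Benjamini-Hochberg over all 12466 genes tested, with a threshold of 0.05. The common biological coefficient of variation was 21.9%. Log2 fold changes use a prior count of 0.125, and the SE is the size of the fold change divided by the root of F. Named genes were the 8 members, PRRX1, the 3 genes per related list with the smallest adjusted p in each comparison, and the 3 genes most like each member. The fit was tested on simulated counts. Alternatives were DESeq2 1.42.0, its size factors, no filter, a term for the library number series in the titles, each library left out in turn, fits limited to the groups compared, and the replicate block. The block in a fit of only the groups compared was added after seeing the data.

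Same-numbered libraries deviated together, by the correlation of their deviations from the group means, in the siRNA comparison (0.34, 0.19 and 0.16) and in TGFb of MDCK-II (0.42, 0.25 and 0.3), so the numbers were taken to pair those; in TGFb of MDCK-NBL2 the values were 0.12, 0.04 and 0.28. No 2 replicates agreed within sampling noise (lowest chi-square per degree of freedom 3.57). No protein, promoter or probe sequence was used here.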

Additional observations from a re-analysis of the deposited data

Results flagged for a closer look

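No protease of the 8 met a rule for a closer look. ADAM12 and ADAM19 could not meet the rule on the difference of TGFb responses, since that difference was not tested for them. ADAMTS6 had too few counts in MDCK-II to be judged by it. Among the related genes, 6 had a TGFb response that differed between MDCK-NBL2 and MDCK-II by the test of the difference itself (edgeR, log2 scale). The ADAM10 escorts gave 0.8 for TSPAN17, -1.47 for TSPAN14 and -2.78 for TSPAN15. The shed proteins gave -1.79 for CX3CL1 and -1.24 for EPCAM, and the ADAMTS substrate VCAN gave -2.75. The calls of CX3CL1, EPCAM, VCAN and TSPAN17 held without each library in turn.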

How the results depend on the processing

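Under the alternatives, the members' tests gave 573 values on the same side of the threshold, 41 that lost a call and 18 that gained one, and no called member reversed. Of 11 called results of members, 2 kept their call in every alternative: ADAM10 in MDCK-II with TGFb and ADAM17 with siPRRX1. TIMP4, THBS1 and IGFBP5 reversed in untreated MDCK-NBL2 without the library labelled day 4 replicate 2, to -1.79, -0.1 and -1.32; their ranges over the libraries left out reached 4.41, 2.26 and 6.47. Counts of genes changed moved most with the libraries in the fit. With only the groups compared, TGFb in MDCK-NBL2 gave 510 genes (40 with the replicate block), the difference of responses 48 (49 with the block), siPRRX1 1159 (2528 with the block), and untreated MDCK-NBL2 0, or 0 with the block (edgeR; 1614 and 1216 at an unadjusted p under 0.05), while untreated MDCK-II gave 496 with the block. DESeq2 called 1188 genes in the difference and 472 with siPRRX1, and the fit without a filter called 163 with siPRRX1. Leaving out a library gave 1257 to 3862 genes for TGFb in MDCK-II, 4457 to 6890 in MDCK-NBL2, 311 to 2653 for the difference, 54 to 655 for siPRRX1, 509 to 2075 for untreated MDCK-II and 729 to 5324 for untreated MDCK-NBL2. The cause was not tested. The block changed no other call of a member in the paired comparisons than those given with siPRRX1. The 2 libraries left in a group are assumed to vary like the other groups. Depth limits ADAM12, ADAM19 and ADAMTS6 in MDCK-II, where counts were near 0.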

Other observations

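Some genes stood highest in the same library of each TGFb-treated MDCK-NBL2 group, a pattern chosen after the values were seen and described without a test. ADAM19 was at 256 CPM in TGFb replicate 1 against 133 and 146 CPM in the others, at 277 CPM in siCTR replicate 1 against 96.8 and 131 CPM, and at 140 CPM in siPRRX1 replicate 1 against 38.5 and 29.7 CPM. PRRX1 was at 37.2 CPM against 8.89 and 5.71 CPM, at 33.9 CPM against 7.35 and 3.88 CPM, and at 1.11 CPM against 0.339 and 0 CPM in the same libraries. The fibrillar collagen gene COL3A1 was at 104 CPM against 6.33 and 12 CPM, at 97.5 CPM against 6.39 and 10.7 CPM, and at 4.84 CPM against 0.791 and 0.565 CPM. ADAM10 and ADAM17 did not show this: ADAM17, for example, was at 138, 143 and 124 CPM in the TGFb libraries. The 3 libraries numbered 1 come from both library number series.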
